A study of Mus musculus with 36 samples.

Results

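Secretory progenitors of the mouse small intestine were examined in single-cell RNA-seq libraries as the cells that carry this name in the authors' deposited annotation. They numbered 228 of 2614 annotated cells, with 82 of 1144 in replicate 1 and 146 of 1470 in replicate 2. The class therefore made up 7.17% of annotated cells in replicate 1 (exact binomial 95% interval 5.74 to 8.82) and 9.93% in replicate 2 (8.45 to 11.6). Both libraries, named set1 and set2 in the labels and called replicates 1 and 2 here, came from separated intestinal cells of 12-month-old wild-type C57BL6/2J mice, with no treatment named. The labels do not say how many mice went into each library, or that the libraries came from different mice, so the spread between them may be technical. The series holds 36 samples in all, and its 34 small RNA libraries of sorted intestinal populations were not used here. The other annotated classes were enterocytes (894 cells), progenitors (694), goblet cells (355), intestinal stem cells (158), Paneth cells (158), enteroendocrine cells (80) and tuft cells (47).

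In the intestinal crypt, daughters of stem cells choose between an absorptive and a secretory fate through Notch signalling. Cells that receive Notch signal hold the transcription factor Atoh1 off and become absorptive, whereas cells that escape it switch Atoh1 on, display Delta-type ligands to their neighbours and go on to form goblet, Paneth, enteroendocrine or tuft cells. Secretory progenitors are the intermediate, and are known for expressing Dll1 together with Atoh1 and, along the goblet and Paneth branch, Spdef.

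Levels are given as unique molecular identifiers (UMIs, which count captured mRNA molecules) of a gene per 1000000 UMIs of the class in that library, written CPM. Intervals around them are exact Poisson 95% intervals that cover counting error only. The secretory progenitor class held 1653950 UMIs in replicate 1 and 6581863 in replicate 2, with a median of 19131.5 and 37838 UMIs per cell. Its cells were deeper than progenitors, whose medians were 17366.5 and 26650 UMIs, and than goblet cells at 17043 and 23920.5. The median mitochondrial share of UMIs was 5.25% and 8.29%. No cell barcode was shared by the libraries. The doublet caller Scrublet marked none of the 228 cells and 6 of all 2614, few enough that it may not have worked here. The median Scrublet score of secretory progenitors was 0.0574 and 0.0717, above that of progenitors (0.0332 and 0.0346) and goblet cells (0.0213 and 0.0143). The part of doublets in the results below was not tested.

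The markers Atoh1, Dll1 and Spdef were all high in the class, but they were shared with goblet cells. Atoh1, the basic helix-loop-helix factor that starts secretory differentiation, stood at 86.5 CPM in replicate 1 (72.9 to 102, 143 UMIs) and 98.0 in replicate 2 (90.6 to 106, 645 UMIs). Progenitors held 2.32 and 6.18, enterocytes 0.783 and 1.24, and goblet cells more than secretory progenitors, at 179 and 162. Spdef, an Ets-family factor of goblet and Paneth maturation, had the same order, with 87.1 and 99.5 in secretory progenitors, 1.49 and 6.02 in progenitors and 157 and 161 in goblet cells. Dll1, the Delta-like ligand for Notch, was the exception. Its level of 76.2 (63.5 to 90.7) and 75.5 (69.0 to 82.5) was the highest of the 8 classes in both libraries, although the intervals overlapped those of goblet cells at 64.1 and 69.8. Stem cells held 14.9 and 12.4 of Dll1 and progenitors 8.63 and 8.49. The summed level of the marker trio was 250 and 273 in secretory progenitors against 400 and 392 in goblet cells, and between 8.61 and 87.7 in the other classes.

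Few UMIs of these mRNAs were captured per cell. After every cell was thinned to 5000 UMIs, which left out 3 shallower secretory progenitors of replicate 2, Atoh1 was seen in 27 of 82 cells (32.9%, exact binomial interval 22.9 to 44.2) and in 62 of 143 (43.4%, 35.1 to 51.9). Enterocytes, which should lack Atoh1, gave 0.493% and 0.418% at the same depth. Dll1 was seen in 25.6% and 32.2% of secretory progenitors, against 3.45% and 3.55% of enterocytes, and Spdef in 34.1% and 44.1%, against 0.246% and 0.209%. At least 2 of the marker mRNAs were found in 26.8% and 35.7% of secretory progenitors, in 41.9% and 48.3% of goblet cells and in 0% and 0.292% of progenitors. Without thinning, 36 of 82 cells and 109 of 146 had all 3. These shares rise with depth, in enterocytes too, where Dll1 was seen in 11.3% and 14.5% of cells without thinning. They are therefore not exact counts of the cells that hold the mRNA.

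**Figure D1:**
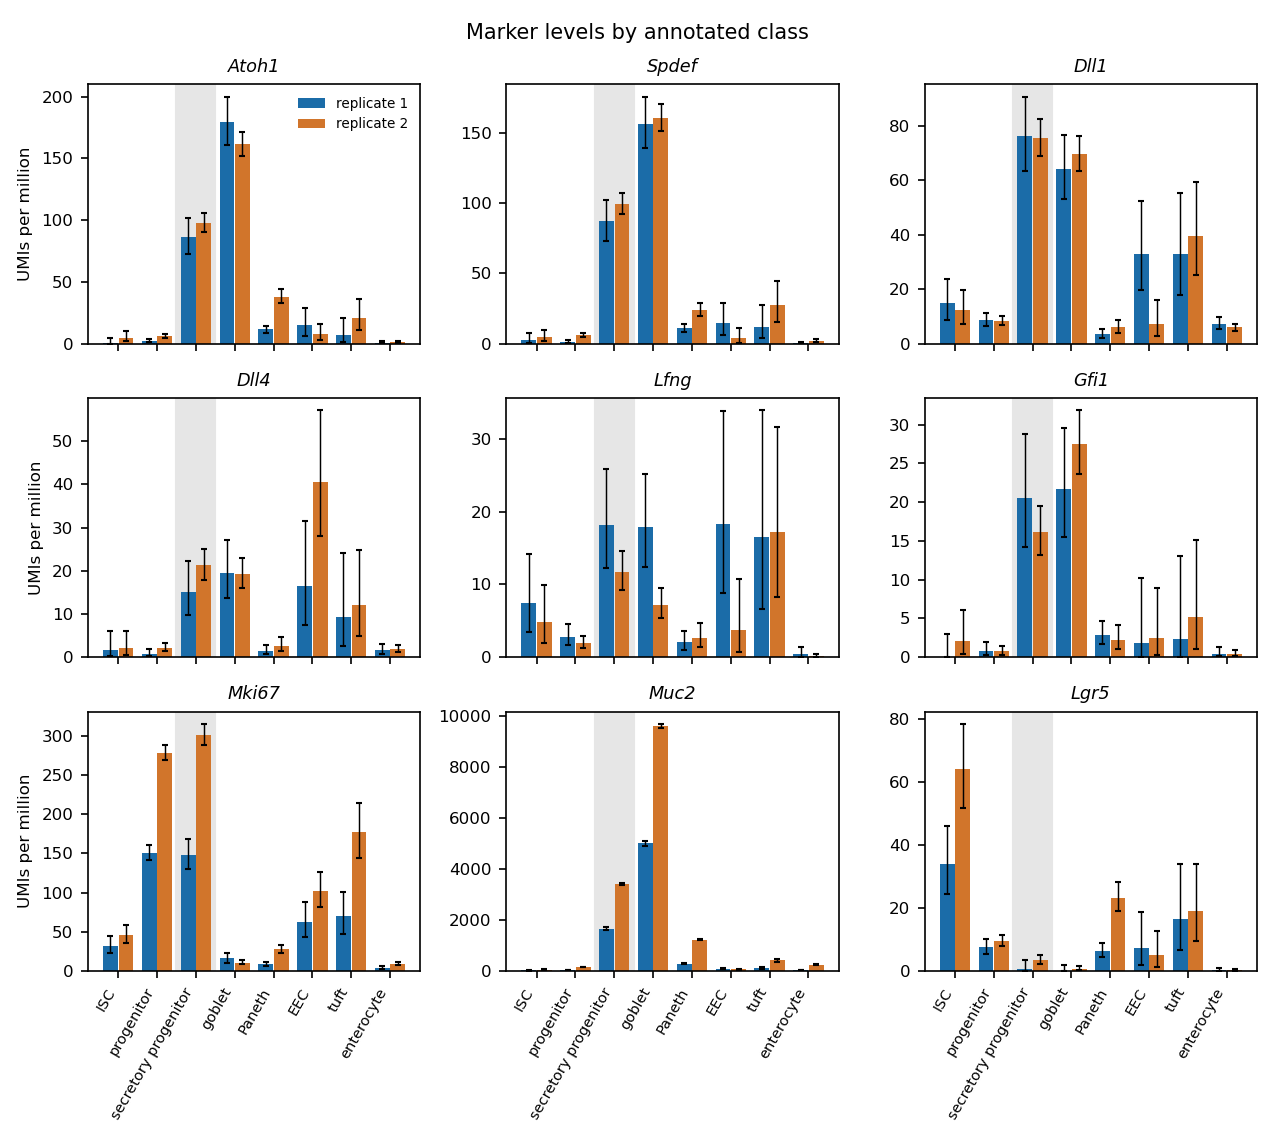
CPM, that is UMIs per 1000000 UMIs of the class, for Atoh1, Spdef, Dll1, Dll4, Lfng, Gfi1, Mki67, Muc2 and Lgr5 in the 8 annotated classes, with bars for replicates 1 and 2 and error bars for 95% Poisson intervals; secretory progenitors are shaded. Dll1 is highest in the shaded class at 76.2 and 75.5, Atoh1, Spdef and Muc2 are higher in goblet cells, Mki67 is shared with progenitors, and Lgr5 is at 0.605 and 3.34.

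Genes were then compared between secretory progenitors and all other annotated cells pooled. A gene was counted higher (or lower) when its ratio was at least 2 (or at most 0.5) in both libraries, with a count under 3 UMIs in the lower class raised to 3. Of 12188 genes with at least 10 UMIs in each library, 572 (4.69%) were higher and 451 (3.70%) lower. The annotation is a clustering of these same cells, so the contrast is a description and was not tested. The comparator held the UMI-rich Paneth cells, and the median log2 ratio over all 12188 genes was 0.43 in replicate 1 and 0.23 in replicate 2 rather than 0. With edgeR's TMM scaling, which moved those medians to 0 and -0.02, 209 genes were higher and 690 lower, so the balance of directions depended on the scaling.

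The genes with the largest ratios joined Notch ligands, secretory factors and mitotic genes. Lfng led the list at 4.44-fold and 4.57-fold, followed by Dll1 at 5.92-fold and 4.27-fold. Id4, an inhibitor of basic helix-loop-helix factors, stood at 20.6 and 26.3 CPM against 2.20 and 6.47 in all other cells, and goblet cells held more of it (26.1 and 36.7). Cdc25b, the phosphatase that releases cells into mitosis, stood at 37.5 and 51.0, above both progenitors (24.5 and 23.7) and goblet cells (15.2 and 10.7). Fgfr2, an FGF receptor, reached 26 and 31.4, below goblet cells at 31.5 and 40.0. Cbfa2t3, a transcriptional corepressor, was at 60.5 and 68.2, below goblet cells at 83.2 and 89.8. The spindle and kinesin genes Aspm, Ckap2l, Kifc1, Kif20a, Gtse1, Espl1, Kif2c and Tpx2 filled 8 of the 30 leading places. Their ratios to progenitors were only 0.963 to 1.55. Rab15, Rap1gap and Tiam1 in small-GTPase signalling, the chemokine Ccl9 and the folding enzymes Txndc5, Pdia5 and Dnajc10 were others. Except for Tiam1, goblet cells held more of each of these, as with Ccl9 at 607 and 326 against 297 and 209. Of the 20 genes with the lowest ratios, 11 were Paneth defensins, which are near-identical copies whose reads may be split between them. The rest were products of other mature cells, such as the hormones Cck, Ghrl, Gip and Gcg of enteroendocrine cells and Rbp2, Lct and Apoa1 of enterocytes.

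**Figure D2:**
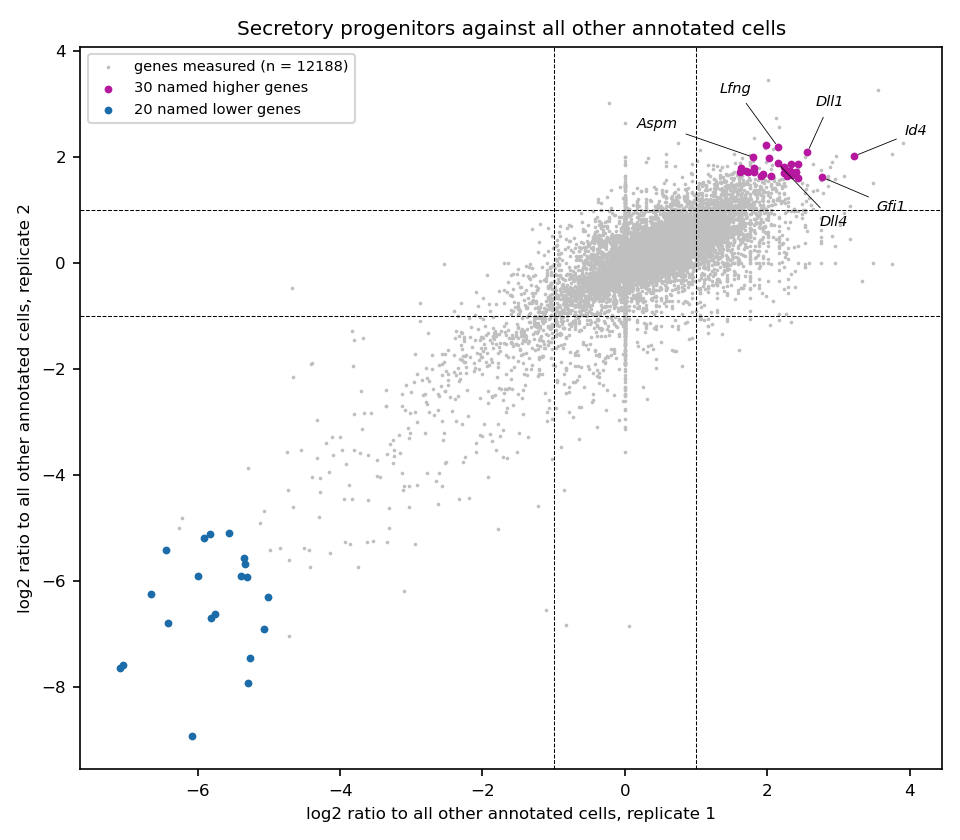
Log2 ratio of secretory progenitors to all other annotated cells in replicate 1 (x) and replicate 2 (y) for 12188 genes in grey, with the 30 leading higher and 20 leading lower genes coloured and dashed lines at the 2-fold limits. The cloud is centred above 0 (medians 0.43 and 0.23), and Lfng, Dll1, Dll4, Id4, Gfi1 and Aspm lie beyond 2-fold in both libraries.

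Among 17 transcription factors of secretory fate, 9 were counted higher than in the other cells and 3 lower, with a median log2 ratio of 1.5 and 1.24 (all genes, 0.43 and 0.23). Gfi1, a zinc-finger repressor that favours goblet and Paneth over enteroendocrine fate, stood at 20.6 and 16.1 CPM, beside 21.7 and 27.5 in goblet cells and above 0.829 and 0.742 in progenitors. The forkhead factors Foxa1, Foxa2 and Foxa3 were all higher. Foxa2 was at 32.6 and 20.1 against 20.7 and 18.2 in goblet cells, and its highest class was enteroendocrine (69.8 and 25.9). Creb3l1, a membrane-bound activator of secretory genes, reached 123 and 148 (progenitors 7.30 and 12.4, goblet cells 201 and 189). Klf4, a goblet differentiation factor that also halts proliferation, was at 162 and 247 beside 8.13 and 24.1 in progenitors and 285 and 350 in goblet cells. Xbp1, the unfolded-protein response factor, was not counted higher, at 177 and 213 against 110 and 147 in all other cells. When the other classes were averaged with equal weight instead of pooled, Foxa1, Foxa2 and Foxa3 no longer reached 2-fold in both libraries.

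The factors counted lower were those of the enteroendocrine branch. Neurog3, which commits cells to that branch, was at 1.81 and 1.82 in secretory progenitors and at 259 and 158 in enteroendocrine cells. All 3 of its UMIs in replicate 1 lay in 1 cell, and the 12 of replicate 2 in 3 cells. Neurod1, which acts after it, had 0 UMIs in replicate 1 and 3 in replicate 2. Bhlha15 (Mist1), a factor of mature secretory cells, was at 7.26 and 6.53, below its level in Paneth cells (21.0 and 31.6). Sox4, a factor of early secretory and enteroendocrine precursors, was at 75 and 87.1, near progenitors at 65.5 and 77.5 and above goblet cells at 20.7 and 12.2. Sox9, a crypt and Paneth factor, was at 71.3 and 68.5 against 34.0 and 46.3 in progenitors.

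On the Notch pathway, Dll1, Dll4 and Lfng were counted higher, while no receptor or target gene was counted either way. Of the 11 ligands and regulators listed, 8 passed the minimum, and these 3 were higher and 0 lower, where 4.69% of all genes were higher. The median log2 ratio of the 8 genes was 0.52 and 0.34, little above the 0.43 and 0.23 of all genes, so the list as a whole did not stand out. Dll4, the second Delta-like ligand of the crypt, stood at 15.1 and 21.3, against 0.829 and 2.23 in progenitors, 19.6 and 19.3 in goblet cells and 16.5 and 40.6 in enteroendocrine cells. Lfng (Lunatic fringe), a glycosyltransferase that modifies Notch and its ligands, was at 18.1 (30 UMIs) and 11.7 (77 UMIs), beside 2.82 and 1.98 in progenitors and 17.9 and 7.22 in goblet cells. Enteroendocrine cells held 18.4 and 3.70 of Lfng and tuft cells 16.5 and 17.2, so secretory progenitors were not its highest class in either library. The ratio of Dll4 was 1.95 and that of Lfng 2.05 (geometric mean of the libraries) when the other classes were averaged with equal weight, and neither then reached 2-fold in both libraries. Jag1, a ligand of the Jagged type, was at 6.65 and 6.53 beside 9.95 and 8.57 in progenitors. Mib1, the ubiquitin ligase that lets ligands signal, was at 26 and 32.1 against 22.4 and 28.4 in progenitors.

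Notch1, the main crypt receptor, was at 15.7 and 10.6 in secretory progenitors, 17.4 and 16.6 in progenitors and 2.72 and 1.5 in goblet cells. Notch2 was at 10.3 and 4.86 beside 10.3 and 6.02 in progenitors. The 3 receptors that passed the minimum had a median log2 ratio of 1.09 and 0.87 to all other cells, above that of the ligand list and of all genes, but none reached 2-fold in both libraries. Of 13 Notch target genes, 7 passed, and 0 were counted higher or lower against the other cells. Hes1, the repressor through which Notch silences Atoh1, was at 58.0 and 33.3, between progenitors (71.0 and 61.6) and goblet cells (21.2 and 20.5), and it was 99.4 and 82.7 in stem cells. Nrarp, a feedback inhibitor of Notch, was at 26.6 and 19.0, between progenitors (34.5 and 25.3) and goblet cells (10.3 and 2.11). Notch1, Hes1 and Nrarp thus lay between progenitors and goblet cells in each library.

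Promoter windows of the ligand group are shown because Dll1, Dll4 and Lfng were the Notch genes counted higher together. Each runs from 250 bases before to 50 after an annotated start (RefSeq, GRCm38.p6), 5′ to 3′ on the gene's strand. Capitals mark CAGCTG, an E-box of the kind that basic helix-loop-helix factors recognise and which reads alike on both strands. The second Dll1 window holds 1 match, the Lfng window 2, and the other windows 0; 16.3% of 32851 RefSeq promoters hold at least 1. The windows of Atoh1 and Spdef hold 0 matches. A match is a run of letters, and no binding was measured here.
Dll1, first window, chr17:15375774-15376073, minus strand: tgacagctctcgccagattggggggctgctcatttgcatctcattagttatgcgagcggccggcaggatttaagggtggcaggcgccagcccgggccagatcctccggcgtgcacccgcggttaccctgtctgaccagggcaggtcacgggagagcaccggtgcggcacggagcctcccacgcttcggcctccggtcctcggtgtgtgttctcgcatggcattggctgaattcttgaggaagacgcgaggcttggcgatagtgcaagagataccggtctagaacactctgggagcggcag
Dll1, second window, chr17:15376883-15377182, minus strand: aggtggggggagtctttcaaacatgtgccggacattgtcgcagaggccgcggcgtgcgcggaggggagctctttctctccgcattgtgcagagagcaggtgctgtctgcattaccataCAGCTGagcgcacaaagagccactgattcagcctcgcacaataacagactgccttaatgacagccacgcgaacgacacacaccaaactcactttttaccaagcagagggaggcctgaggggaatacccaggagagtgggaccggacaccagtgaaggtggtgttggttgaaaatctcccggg
Dll4, chr2:119325534-119325833, plus strand: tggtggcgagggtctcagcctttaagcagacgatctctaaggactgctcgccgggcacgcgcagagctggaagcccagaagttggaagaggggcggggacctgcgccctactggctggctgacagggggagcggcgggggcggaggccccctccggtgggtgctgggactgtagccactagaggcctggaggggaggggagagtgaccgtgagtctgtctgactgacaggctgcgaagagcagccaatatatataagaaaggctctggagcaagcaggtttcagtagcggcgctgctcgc
Lfng, chr5:140607091-140607390, plus strand: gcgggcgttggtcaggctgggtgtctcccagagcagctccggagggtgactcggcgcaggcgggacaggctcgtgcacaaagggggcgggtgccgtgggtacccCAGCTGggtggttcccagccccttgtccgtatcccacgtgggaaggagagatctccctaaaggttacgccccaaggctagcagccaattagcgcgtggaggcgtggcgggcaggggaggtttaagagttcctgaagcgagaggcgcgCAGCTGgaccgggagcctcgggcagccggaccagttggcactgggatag

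Secretory progenitors carried the goblet program at about 31% of its level in goblet cells. The 16 goblet genes summed to 57128 and 54412 CPM, against 186170 and 176140 in goblet cells and 1273 and 2476 in progenitors. The class was thus at 30.7% and 30.9% of the goblet level and 44.9-fold and 22-fold above progenitors. Muc2, the gel-forming mucin of goblet cells, was at 1645 and 3400 (goblet cells 5006 and 9608, progenitors 26 and 157). Tff3, a trefoil peptide secreted with mucus, was at 21796 and 10360, and Agr2, the disulfide isomerase needed for mucin folding, at 7936 and 12027. Zg16, a lectin of mature goblet cells, was further from the goblet level, at 4737 and 10725 against 41913 and 59083. Against progenitors, 15 of the 16 genes were higher, where 3.81% of 10772 genes were. Against goblet cells 12 were lower, where 1.79% of 9815 genes were. Against all other cells, a comparator that includes goblet cells, 7 were higher (Agr2, Sytl2, Ccl9, Tpsg1, Fer1l6, Fxyd3 and Rep15), and 4 with TMM scaling.

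Goblet mRNAs were also found in cells that should lack them, at a far lower level. After thinning, Muc2 was seen in 89.0% and 88.8% of secretory progenitors and in 8.87% and 10.2% of enterocytes. Tff3 was seen in all secretory progenitors and in 58.9% and 32.4% of enterocytes, so its presence alone marks nothing. The summed goblet list separates them by level. In cells of 5000 UMIs it had a median of 238.5 UMIs (range 40 to 1121) and 269 (16 to 882) in secretory progenitors, 4 and 4 in progenitors, and 912 and 891 in goblet cells.

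Mitotic genes stood at the progenitor level. The 52 genes of G2 and M phase summed to 5139.8 and 7178 in secretory progenitors, 5959 and 7632 in progenitors, and 881 and 760 in goblet cells. The class thus held 86.2% and 94.1% of the progenitor level and 5.84-fold and 9.45-fold that of goblet cells. Mki67, the proliferation marker, was at 148 and 302 (progenitors 151 and 279, goblet cells 15.8 and 10.5). Top2a, the DNA topoisomerase of dividing cells, was at 235 and 324 (progenitors 261 and 379, goblet cells 23.9 and 10.5). Against goblet cells 51 of the 52 genes were higher, where 10.4% of 9815 genes were. Against progenitors none was higher and none lower, with a median log2 ratio of -0.17 and -0.07 (all genes, -0.03 and -0.05). Against all other cells 45 were higher, a count that was 16 with TMM scaling, 22 without Paneth cells in the comparator and 30 without the 5% of cells with most UMIs.

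DNA replication genes were also nearer to progenitors than to goblet cells. The 42 S-phase genes summed to 1396 and 1441, which was 90.1% and 73.9% of the progenitor level of 1549.7 and 1950.5. Pcna, the sliding clamp of DNA polymerase, was at 41.7 and 14 against 47.4 and 24.9 in progenitors. None of the list was 2-fold higher or lower than in progenitors, and 38 were higher than in goblet cells. Against all other cells 6 were higher, among them Rrm1, a ribonucleotide reductase subunit, at 79.8 and 75.1 (2 with TMM scaling and 11 without the cells with most UMIs). Of the genes of cell-cycle exit, Cdkn1a, which encodes the inhibitor p21, was at 53.8 and 59.4, near progenitors at 41.8 and 46.5 and below goblet cells at 93.0 and 109. Btg2, an antiproliferative gene, was at 93.1 and 170, between progenitors (30.2 and 47.1) and goblet cells (198 and 317).

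**Figure D3:**
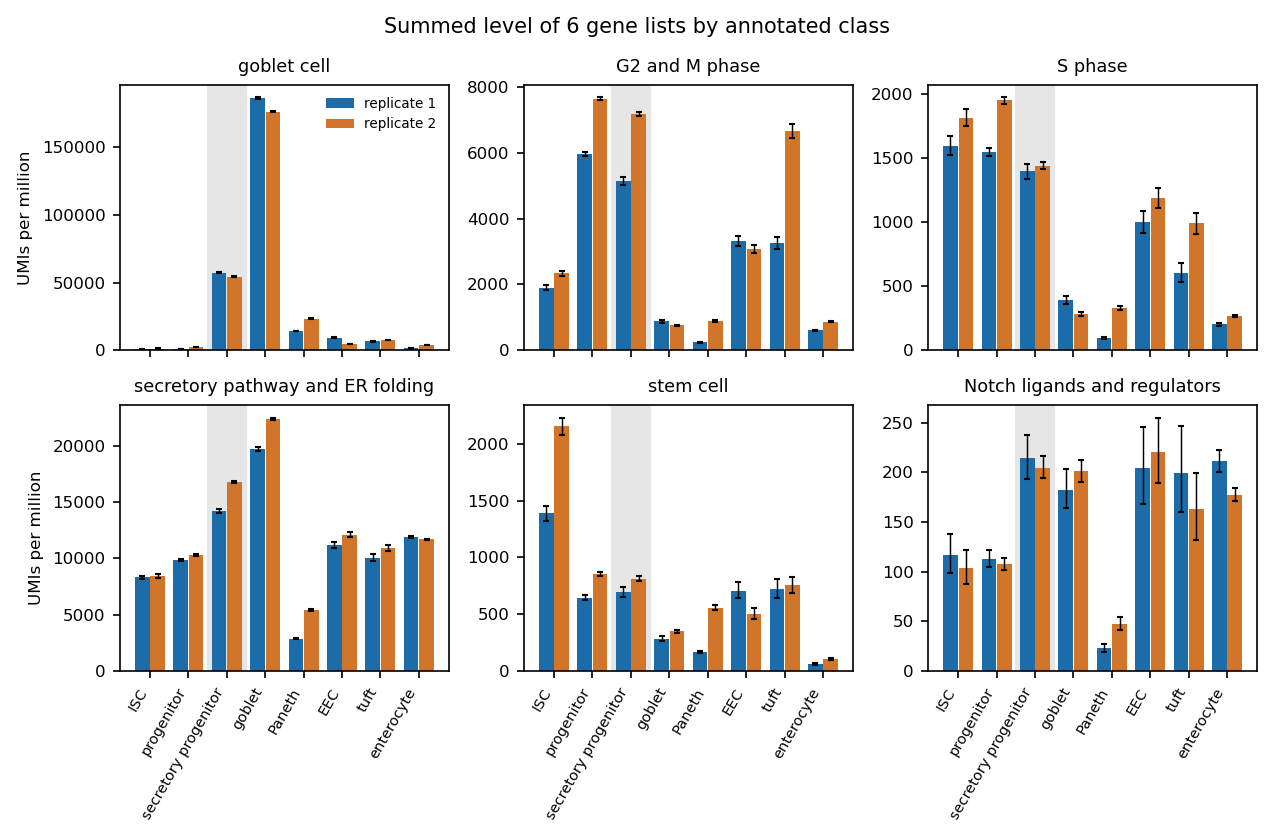
Summed CPM of 6 gene lists in the 8 annotated classes, replicates 1 and 2, with 95% Poisson intervals; secretory progenitors are shaded. The goblet list of the shaded class stands at 57128 and 54412 against 186170 and 176140 in goblet cells, and its G2 and M phase list at 5139.8 and 7178 beside 5959 and 7632 in progenitors.

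The machinery that loads and folds secreted proteins was between progenitors and goblet cells. The 58 genes of the secretory pathway and ER folding summed to 14211 and 16754, which was 72.1% and 74.8% of the goblet level and 1.45-fold and 1.63-fold that of progenitors. Txndc5, an ER thioredoxin, was at 504 and 587 (progenitors 41.1 and 55.2, goblet cells 864 and 855). Ern2, the goblet form of the ER stress sensor IRE1, was at 66.5 and 79.0 (progenitors 1.66 and 5.6, goblet cells 96.2 and 141). Pdia5, Kdelr3 and Ern2 were the 3 of 58 counted higher than all other cells, a share near the 4.69% of all genes, and 11 were higher than in progenitors, where 3.81% of all genes were. Hspa5 (BiP), the general ER chaperone, was at 423 and 682 against 303 and 381 in progenitors. The mucin glycosylation genes summed to 1184 and 1598, or 64.4% and 63.8% of the goblet level. Among the 19 tested, 9 were counted higher and 1 lower than in all other cells (4 and 2 with TMM scaling), where 4.69% and 3.70% of all genes were. Galnt12, a GalNAc transferase that starts O-glycans, was at 132 and 159, and Gcnt3, a core-branching enzyme of mucin glycans, at 106 and 129 against 3.15 and 5.69 in progenitors. St3gal4, a sialyltransferase, was the gene counted lower, at 79.8 and 151, with 1044 and 1164 in enterocytes.

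Stem cell genes summed to the progenitor level, with Lgr5 and Olfm4 well below their level in stem cells. Lgr5, the Wnt-driven receptor that marks crypt stem cells, was at 0.605 (1 UMI) and 3.34 (22 UMIs, 15 of them in 1 cell), against 34.0 and 64.1 in stem cells and 7.46 and 9.64 in progenitors. After thinning, 0 of 82 and 1 of 143 cells had an Lgr5 UMI, a depth at which a gene this low is mostly missed. Olfm4, a second stem cell marker, was at 3.02 and 19.1 against 19.9 and 289 in stem cells and 5.14 and 56.4 in progenitors. Axin2, a Wnt target, was at 47.8 and 37.5, near progenitors at 43.0 and 42.6 and above goblet cells at 7.61 and 4.81. Slc12a2, a crypt ion transporter, was the 1 of 17 stem cell genes counted higher than all other cells (172 and 273), where 4.69% of all genes were, and with TMM scaling 0 were. The list summed to 693 and 812, against 643 and 853 in progenitors and 283 and 349 in goblet cells. Wnt ligands and targets summed to 328 and 295, beside 318 and 321 in progenitors and 132 and 112 in goblet cells. Of 16 Wnt genes tested, 0 were counted higher and 1 lower. Among 12 genes of EGF receptor signalling, Btc, a ligand, was counted higher on 7 and 51 UMIs, and it no longer was with TMM scaling.

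Most genes of the enterocyte, enteroendocrine and tuft lineages were lower in the class than in all other cells pooled. The Paneth list lay between progenitors and goblet cells. Of 16 enterocyte genes 14 were counted lower than in all other cells, and so were 15 of 22 enteroendocrine, 7 of 11 tuft cell and 14 of 17 Paneth genes, with 0 higher in each list, where 3.70% of all genes were lower. The comparator holds the mature cells of each of these lineages. Against progenitors, 1 of the 22 enteroendocrine genes was higher and 0 lower, and 0 of the 11 tuft genes were either. Of the 16 enterocyte genes, 3 were lower than in progenitors and 0 higher, where 0.427% of all genes were lower. The Paneth count rests on Paneth cells in the comparator. Without Paneth cells, 3 of 16 Paneth genes were higher and 0 lower. Against progenitors, 8 of the 17 Paneth genes were higher and 0 lower, with a median log2 ratio of 1.24 and 1.47, where 3.81% of all genes were higher. The Paneth list summed to 9477 and 4076 CPM in secretory progenitors, 3982 and 1359 in progenitors and 13538 and 10880 in goblet cells. Mmp7, the protease that activates defensins, was at 133 and 259 in secretory progenitors, between 8.63 and 19.5 in progenitors and 1321 and 2452 in Paneth cells. Lyz1, the Paneth lysozyme, was at 601 and 356 against 335 and 125 in progenitors and 59796 and 62838 in Paneth cells. Its UMIs were present in 81.7% and 58.7% of thinned secretory progenitors and in 83.7% and 31.9% of enterocytes, so presence of a UMI in replicate 1 did not tell the classes apart. By level, enterocytes held 338 and 70.6 CPM of Lyz1. Chgb, an enteroendocrine granule protein, had 319 UMIs in replicate 2, of which 313 lay in 1 cell. Leukocyte genes summed to 839 and 845, below progenitors at 1341 and 1328, and stromal genes to 7.86 and 2.89.

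The whole profile was nearest to that of progenitors. Across the 12188 genes, Spearman's correlation of levels was 0.95 and 0.965 with progenitors, 0.924 and 0.934 with goblet cells and 0.919 and 0.930 with stem cells. These are correlations across genes of classes that share a library, and genes are not independent. Of 10772 genes compared with progenitors, 410 (3.81%) were higher and 46 (0.427%) lower in secretory progenitors. Against stem cells it was 644 (6.7%) and 126 (1.31%) of 9618 genes, and against enterocytes 2096 (19.8%) and 978 (9.24%) of 10580. Of 9815 compared with goblet cells, 1021 (10.4%) were higher and 176 (1.79%) lower. Against enteroendocrine cells 194 (2.02%) of 9598 genes were higher and 728 (7.58%) lower, and against tuft cells 208 (2.23%) and 466 (4.99%) of 9346. Against Paneth cells 8488 (87.7%) of 9682 genes were higher and 79 (0.816%) lower, with a median log2 ratio of 2.95 and 1.84. The Paneth gene list alone held 679090 and 520970 CPM of those cells.

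Few genes were above both neighbours. Of 402 genes at least 2-fold above progenitors and also compared with goblet cells, 340 (84.6%) were below goblet cells in both libraries. Of the 1021 genes 2-fold above goblet cells, 503 (49.3%) were below progenitors in both and 156 above in both. Over all genes compared, the median log2 ratio was 0.36 and 0.34 to goblet cells and -0.03 and -0.05 to progenitors. The shares of all genes below either class in both libraries were not counted, so neither the 84.6% nor the 49.3% is read as a trait of its set. Only 1 of 9719 genes (0.0103%) was 2-fold above both classes in both libraries. It was Ror2, a receptor for Wnt5a, at 6.65 and 1.37 on 11 and 9 UMIs, too few to carry weight. At 1.5-fold, 19 genes (0.195%) were above both, and Fam132b (erythroferrone, a secreted regulator of iron) was the 1 gene of 12188 (0.0082%) that was 1.5-fold above every other class. With no minimum fold, 132 genes (1.08%) were highest in secretory progenitors in both libraries. Fam132b stood at 15.7 and 15.3, against 6.63 and 8.90 in progenitors and 8.70 and 8.27 in goblet cells. Marcksl1, a MARCKS-family protein, was at 24.2 and 14 against 7.80 and 6.84 in progenitors and 8.15 and 7.37 in goblet cells. Ror2 and Marcksl1 were chosen for mention after their values were seen.

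A mixture of goblet and progenitor RNA gives a reference for these intermediate levels. The goblet list itself would be met by a mixture with 30.2% goblet UMIs in replicate 1 and 29.9% in replicate 2. Against that weighted mean, with the goblet list left out, 208 of 9703 genes (2.14%) were at least 1.5-fold higher in both libraries and 110 (1.13%) lower, and at 2-fold 29 (0.299%) were higher and 18 (0.186%) lower. The median log2 ratio of all genes was 0.07 in both. The Notch ligand group was among the higher genes, with Dll1 at 3.00-fold and 2.82-fold, Lfng at 2.46-fold and 3.30-fold and Dll4 at 2.33-fold and 2.91-fold. All 3 markers were higher, with Spdef at 1.80-fold and 1.90-fold, and 7 of 13 secretory factors were, including Foxa2 at 3.72-fold and 2.30-fold and Gfi1 at 2.88-fold and 1.84-fold. The weight follows the summed goblet list, so a gene low in progenitors passes when its share of the goblet level is well above the weight. Spdef was at 0.556 and 0.618 of its goblet level, and the left-out goblet gene Ccl9 at 0.489 and 0.642. The excess over the weighted mean was not tested. Kit, the stem cell factor receptor, was at 3.19-fold and 2.53-fold (mentioned after its values were seen). Of 51 mitotic genes 1 was higher, and of 41 S-phase genes 0. Enterocyte genes went the other way, with 8 of 14 lower, for example Rbp2, a retinol-binding protein, at 0.317 and 0.332.

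Goblet and mitotic mRNAs were found in the same cells. In cells of 5000 UMIs, G2 and M phase genes had a median of 24 UMIs (range 3 to 56) and 35 (0 to 93) in secretory progenitors, 30 and 37 in progenitors and 3 and 3 in goblet cells. In replicate 1, 69 of 82 secretory progenitors (84.1%) lay above the 95th percentile of progenitors for goblet UMIs and above the 95th percentile of goblet cells for mitotic UMIs. In replicate 2 it was 130 of 143 (90.9%). The limits were set on progenitors and goblet cells themselves, so few cells of either class can pass both by construction. Across secretory progenitors of a library, goblet and mitotic UMIs had a Spearman correlation of -0.03 (82 cells) and 0.10 (143 cells). Cells of 1 library share depth and free RNA and are not replicates. A droplet that held a goblet cell and a progenitor would carry both sets of mRNA too; doublet scores are given above, and their part in the result was not tested.

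**Figure D4:**
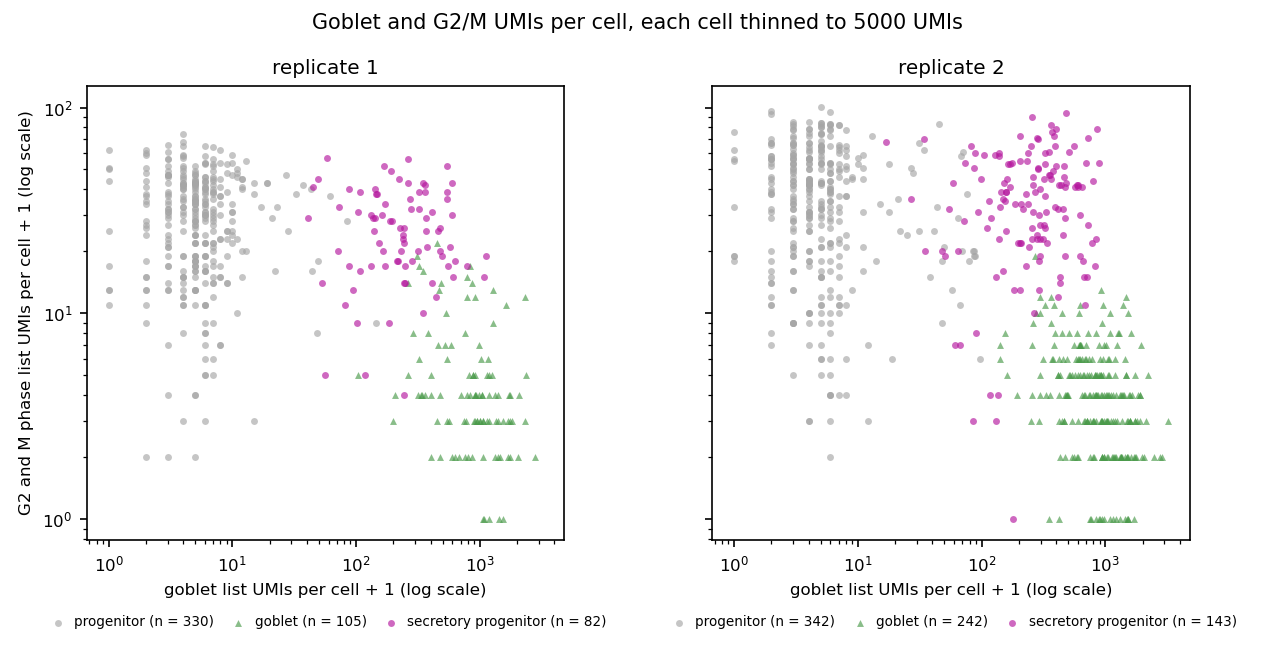
Goblet-list UMIs plus 1 (x, log scale) against G2 and M phase UMIs plus 1 (y, log scale) per cell thinned to 5000 UMIs, for progenitors, goblet cells and secretory progenitors, 1 panel per replicate. Secretory progenitors lie between progenitors (median 4) and goblet cells (medians 912 and 891) on x, at the height of progenitors on y.

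The cells of the class differed widely in goblet content, so they were split into tertiles by goblet UMIs within each library (27 or 28 cells each in replicate 1, 47 or 48 in replicate 2). Goblet genes made the split and are not read. Sox4 was 177 CPM in the lowest, 38.1 in the middle and 20.3 in the highest tertile of replicate 1, and 164, 51.1 and 26.4 in replicate 2. Notch1 had the same order, with 23.6, 14.9 and 9.23 in replicate 1 and 15.7, 10.4 and 3.22 in replicate 2. All Neurog3 UMIs, 3 and 12, lay in the lowest tertile. Sox4 was therefore highest in the cells with least goblet mRNA, in both libraries. The order of Notch1 in replicate 1 rests on 12, 9 and 5 UMIs with overlapping intervals. Neurog3 rests on 1 cell in replicate 1 and 3 cells in replicate 2.

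Atoh1 had the opposite order, and the Notch ligand Dll1 had no order. Atoh1 was 59.0, 77.9 and 122 from the lowest to the highest tertile in replicate 1 and 71.2, 89.5 and 153 in replicate 2. Klf4 was 138, 104 and 249 in replicate 1 and 194, 199 and 407 in replicate 2, so it was highest in the highest tertile without a steady order in replicate 1. Txndc5 was likewise 372, 359 and 788 in replicate 1 and 404, 536 and 957 in replicate 2. Dll1 was 86.5, 58.0 and 86.7 in replicate 1 and 80.3, 62.2 and 89.6 in replicate 2, lowest in the middle tertile of both. Mki67 was lower from tertile to tertile by a small step, with overlapping intervals of the lowest and highest tertile in both libraries, at 163, 149 and 133 in replicate 1 and 326, 291 and 284 in replicate 2. Top2a was 252, 234 and 221 in replicate 1 and 326, 328 and 312 in replicate 2, without a steady order in replicate 2.

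The lists followed the same lines. Stem cell genes summed to 958, 722 and 413 in replicate 1 and 1118, 709 and 503 in replicate 2, and Wnt genes to 543, 283 and 177, and 446, 247 and 141. Ribosomal protein genes had the same order, at 242440, 211640 and 177200, and 171400, 145190 and 126260. Secretory pathway and ER genes ran the other way, at 10727, 13598 and 18162, and 13015, 17004 and 22191. G2 and M phase genes stayed between 5001 and 5279 in replicate 1 and ran from 6709 to 7996 in replicate 2. S-phase genes were lower from tertile to tertile, at 1577, 1370 and 1255, and 1666.5, 1411 and 1137. Their intervals in the lowest and highest tertile did not overlap in either library, but these cover counting error and not the spread among cells. Across single cells, goblet and S-phase UMIs had a Spearman correlation of -0.11 (82 cells) and -0.31 (143 cells). Paneth list levels also moved with the split, from 5106 to 17234 and from 1361 to 9451, and so did immediate early and dissociation stress genes, from 1060.1 to 1722 and from 878 to 2020.1. The Paneth sums are weighted by a few cells rich in Paneth mRNA. Across single cells, goblet and Paneth UMIs had a Spearman correlation of 0.17 in replicate 1 and 0.33 in replicate 2. The goblet list itself took 20864 CPM in the lowest and 102050 in the highest tertile of replicate 1, and 23314 and 105760 in replicate 2, which leaves less of the total for other genes. The parts of this share and of Paneth and stress mRNA in these orders were not tested.

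**Figure D5:**
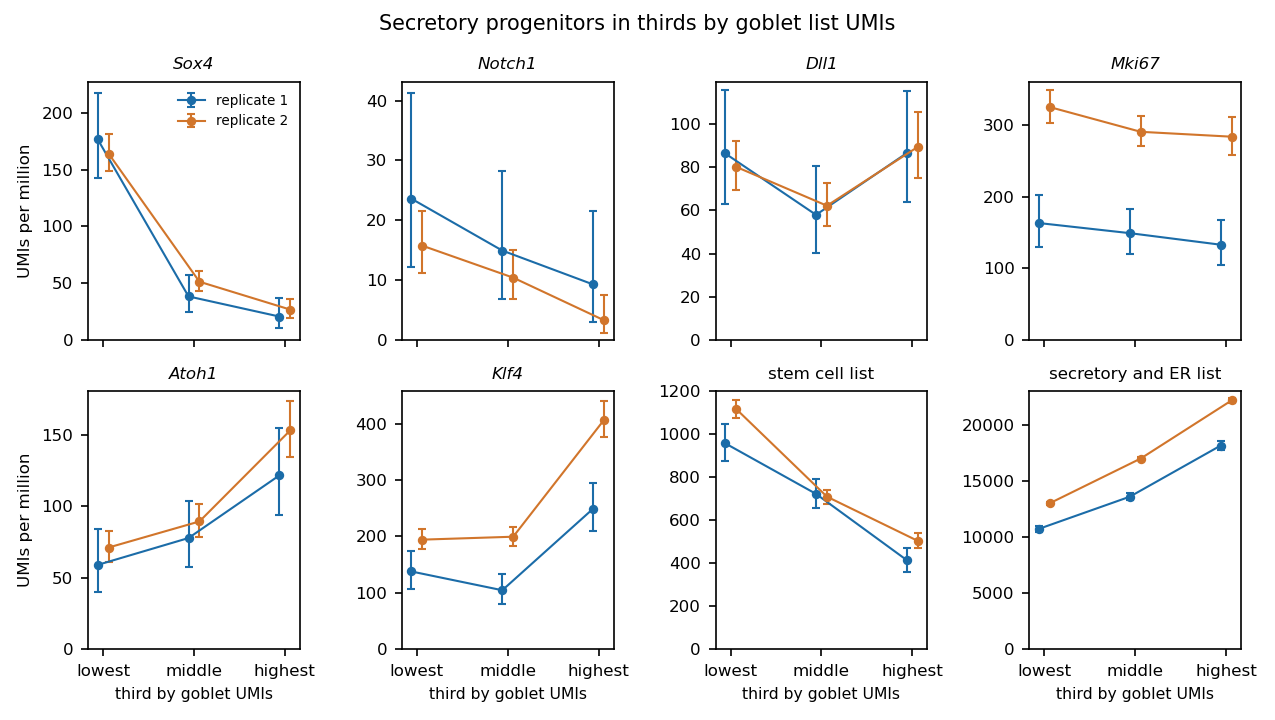
CPM with 95% Poisson intervals in the lowest, middle and highest tertile of secretory progenitors by goblet-list UMIs, replicates 1 and 2, for Sox4, Notch1, Dll1, Mki67, Atoh1, Klf4, the stem cell list and the secretory pathway and ER list. Sox4, Notch1 and the stem cell list are highest in the lowest tertile, and Atoh1, Klf4 and the ER list in the highest. The Notch1 intervals overlap in replicate 1. Dll1 has no order and Mki67 changes by a small step only.

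The series is about microRNAs, which these libraries do not measure, but the host transcripts of some microRNAs and the genes that process them were counted. Of 16 host genes tested, Pde2a, a phosphodiesterase, and Smc4, a condensin subunit of dividing cells, were counted higher than in all other cells, where 4.69% of all genes were, and 1 of the 16 was with TMM scaling. Pde2a was at 30.2 and 28.4 against 0.332 and 1.81 in progenitors and more in goblet cells, where replicate 2 held 52.8. Smc4 was at 105 and 202, below progenitors at 143 and 236. Of 13 processing genes, 0 were counted higher or lower. Dicer1, which cuts precursors to mature microRNAs, was at 20.6 and 32.7 beside 27.5 and 32.1 in progenitors, and Drosha, which makes those precursors, at 17.5 and 19.3 beside 12.4 and 15.

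Handling can induce some genes during tissue dissociation, and the list of such genes was between both neighbours in secretory progenitors. It summed to 1189 and 1290.2, against 573 and 653 in progenitors and 2023 and 2366 in goblet cells. Fos, an immediate early gene, was at 151 and 199 (progenitors 37.5 and 34.3, goblet cells 306 and 460). Ribosomal protein genes summed to 209820 and 150440, close to progenitors at 216520 and 166310, and none of the 57 was counted higher or lower than in the other cells. The libraries differed in level for some genes, as with Mki67 and Muc2, which were about 2-fold higher in replicate 2 than in replicate 1, and Tff3, which was lower. With 1 library on each side, these differences have no replicate check.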

How the data were processed

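The authors deposited UMI counts per gene and cell for 2 10x Chromium libraries of small intestine, together with an annotation that gives each kept cell a class. Per the submitters' processing notes the genome build was mm9, and per the file headers version 3.0.1 of the matrix software wrote the second library's matrix; for cell filters and doublet removal the sources name no method. Annotated cells were joined to the matrices by library and barcode, which left 65 of 1209 and 6241 of 7711 barcodes outside. Annotated cells held 23947568 and 47974261 UMIs over 27998 genes. Counts were summed per class and library and expressed per 1000000 UMIs (CPM). Cells of 1 library are not replicates, so no test was run, and values of both libraries stand side by side. Genes needed 10 UMIs in each library. Named genes were the markers, members of 24 gene lists, and, with at least 20 UMIs in the higher class, the 30 higher and 20 lower genes whose ratio was most extreme in the library where it was less so. A gene that met this rule is not reported here by name. The members and lists were chosen with earlier results of these data known. The comparison was checked on simulated data. Alternatives were TMM scaling, other count minimums, other averages of cells and classes, other folds and thinning depths, and leaving out cells with most UMIs, Scrublet doublets or each library. Gene places and promoters came from RefSeq (GRCm38.p6) by symbol, matched for all 5 genes looked up, since no mm9 genome was used. Tools were Python 3.11.15, numpy 2.4.6, scipy 1.17.1, pandas 2.3.3, scanpy 1.11.5, matplotlib 3.10.9, R 4.3.3 and edgeR 4.0.16.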

Additional observations from a re-analysis of the deposited data

Results flagged for a closer look

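In replicate 2, 17 of 6241 barcodes outside the authors' annotation carried UMIs of Atoh1, Dll1 and Spdef together, and 16 of them were among the 741 such barcodes with at least 5000 UMIs. In replicate 1, 0 of 65 did. These barcodes entered no comparison. Among annotated cells of replicate 2, all 3 markers were found in 74.7% of secretory progenitors, 69.2% of goblet cells and 4.12% of progenitors. The trio therefore does not tell secretory progenitors from goblet cells among the barcodes the annotation leaves aside.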

How the results depend on the processing

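The count of genes higher than in all other annotated cells (572) was 209 with TMM scaling, 287 with the other classes averaged at equal weight and 12 at 4-fold, and the count of lower genes (451) was 690 with TMM scaling and 165 at 4-fold. Leaving out either library gave 979 to 2180 higher and 614 to 839 lower genes, since a gene then had to pass in 1 library only. As a mean over cells, the summed levels in CPM (mean of the libraries) were 309 for the markers (261 when counts were pooled), 1265 for secretory factors (1097.5), 232 for Notch ligands (209.7), 207 for Notch targets (185), 58745 for goblet (55770), 339 for enteroendocrine (329) and 791 for leukocyte genes (842). Without the 5% of cells with most UMIs they were 286 for the markers, 219 for Notch ligands, 58416 for goblet, 311 for enteroendocrine, 783 for leukocyte and 1459 for S-phase genes (1419). The share of cells with a UMI, averaged over libraries, was 80.8% for Atoh1, 78.9% for Dll1 and 81.3% for Spdef without thinning, and 56.7%, 54.2% and 57.0% at 10000 UMIs per cell. With Paneth cells left out of the comparator, an alternative chosen after seeing the data, the defensins Defa20 (1.01-fold), Defa26 (1.47-fold) and Gm15299 (1.64-fold) turned from lower to slightly higher. Over all settings, 106 recomputed main values stayed within 1.5 times (counts) or the spread between libraries and 27 did not. Among recomputed ratios of named genes, 657 stayed on their side of 2-fold, 13 no longer reached it and 13 newly reached it. The 3 that reversed were the defensins above. No paired analysis was possible because the results come from no test and both libraries belong to 1 group. Depth limits the low genes: Dll4, Lfng and Gfi1 rest on 25 to 34 UMIs in replicate 1.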
